A study of Mus musculus with 11 samples.

Results

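The KIT transition was compared at both ends of life: for every gene, the difference between KIT+ and KIT- spermatogonia (the KIT effect) in aged mice was set against the same difference in neonatal mice. The comparison used 8 of the 11 libraries of the series, 2 each of neonatal KIT-, neonatal KIT+, aged KIT- and aged KIT+ spermatogonia. Enough reads to be tested were present for 18412 of the 37991 gene identifiers. All mice carried the Oct4-GFP transgene Tg(Pou5f1-EGFP)2Mnn on a mixed B6;CBA background, in which regulatory sequence of *Pou5f1* (*Oct4*) drives green fluorescent protein. The mice were 6 days old in the neonatal and 15 months old in the aged groups, and the labels give no treatment. Every population was gated on GFP, so all 4 groups are limited to cells in which this transgene was on, and KIT was scored as protein on the cell surface. The study's methods give 2 independent sorting experiments per population. Neither they nor the labels say how many animals were pooled in each, so p-values measure the spread between these libraries.

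Undifferentiated spermatogonia contain the stem cells of the male germline, which are maintained by GDNF from Sertoli cells acting through the receptor pair GFRA1 and RET. Retinoic acid commits them to differentiation, whereupon they switch on the receptor tyrosine kinase KIT and the retinoic acid target STRA8 and enter a series of amplifying divisions before meiosis. In the neonatal testis this first wave has only begun and no meiotic or haploid cell has yet formed, whereas the adult and aged testis holds all stages up to sperm.

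The 8 libraries held between about 25370000 and 76760000 reads on genes, a 3.03-fold range, so that 3 reads on an exon length of 1 kb were worth 0.0391 to 0.118 RPKM (reads per kilobase of exon, scaled to library size). Summed over the 14 germ cell markers, the libraries lay between 992 and 1261 RPKM, and none of these markers was at 0 in any library. By gene they were less even. The KIT effect was more negative in aged mice for 5 of the 14 (35.7%, against 2.98% of all genes). These were *Pou5f1*, *Nanos3*, *Zbtb16* and *Gfra1*, which are also in the undifferentiated list, and *Piwil4*. The median effect of the 14 was -0.08 in neonatal and -0.51 in aged cells. Other cell types' markers were uneven. The 15 spermatocyte and spermatid markers summed to 732 and 336 RPKM in the 2 aged KIT- libraries, to 57.8 and 63.0 RPKM in aged KIT+ cells and to 27.9 to 33.6 RPKM in the neonatal libraries. The 19 macrophage markers summed to 23.0 and 88.6 RPKM in aged KIT+ cells and to 3.60 to 9.90 RPKM in the other 6 libraries. The first aged KIT- library also stood above the second for the 10 Leydig cell markers, at 28.4 against 4.50 RPKM. The 8 peritubular myoid cell markers summed to 31.8 and 19.2 RPKM in aged KIT- cells, 10.4 and 11 RPKM in aged KIT+ cells and 3.93 to 6.57 RPKM in the neonatal libraries, and the 8 endothelial markers were at 8.52 and 7.76 RPKM in aged KIT- cells against 2.56 to 3.85 RPKM in the other 6. The part of these cells in the aged KIT- values was not tested. The 18 Sertoli cell markers lay between 109 and 185 RPKM in all 8, of which *Dmrt1*, which spermatogonia also express, made up 35.1 to 70.4 RPKM.

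**Figure D1:**
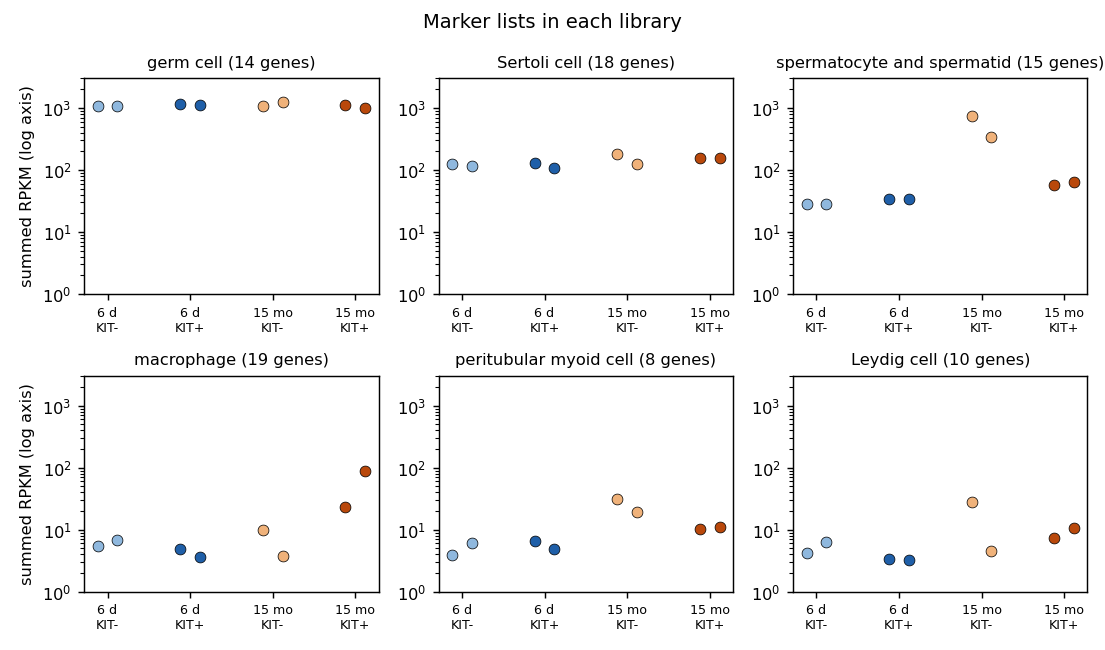
Summed RPKM (log axis) of 6 marker lists in each of the 8 libraries, with 1 point per library and the number of genes in each list in the panel title. Germ cell sums lie between 992 and 1261 RPKM and Sertoli cell sums between 109 and 185 RPKM, spermatocyte and spermatid markers are highest in the 2 aged KIT- libraries (732 and 336 RPKM), and macrophage markers are highest in the 2 aged KIT+ libraries (23.0 and 88.6 RPKM).

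*Kit* itself, at 5:75970941-76052747 on the plus strand (mm9), stood at 3.36 and 3.37 RPKM in neonatal KIT- cells, 38.3 and 35.8 RPKM in neonatal KIT+ cells, 9.66 and 7.88 RPKM in aged KIT- cells and 67.8 and 62.8 RPKM in aged KIT+ cells. The sort was therefore visible in the RNA at both ages, with no overlap between KIT- and KIT+ libraries. On the log2(RPKM + 1) scale, on which all differences here are given, the KIT effect was 3.12 (95% interval 2.85 to 3.40) in neonatal and 2.77 (2.49 to 3.04) in aged cells. The effects differed by -0.36 (-0.75 to 0.04), which did not pass the test (adjusted p = 0.303, limma).

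To see which KIT changes depended on age, the interaction of KIT and age was tested in limma, with genes called at an FDR (Benjamini-Hochberg) up to 0.05. The KIT effect differed between the ages for 722 genes, or 3.92% of those tested. It was more negative in aged mice, that is, shifted towards KIT- cells, for 548 genes (2.98%) and more positive for 174 genes (0.945%). The shift was thus mostly in 1 direction. With voom weights on the recovered reads 383 genes were more negative and 203 more positive. With the replicate number as a term inside each age, 0 genes passed. Whether same-numbered libraries are pairs is not known. Among the 22 gene lists, apart from the marker lists of cell types, the largest shares on the negative side were those of spermatids and of undifferentiated spermatogonia, and on the positive side those of the cell cycle. For spermatid genes with few or no neonatal reads, the interaction restates the aged KIT effect.

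Most of these genes passed the KIT thresholds in aged mice and not in neonatal mice. In the negative group, 410 of 548 genes had a KIT effect called in aged cells (FDR of at most 0.05 and a fold of at least 1.5) and none detected in neonatal cells (unadjusted p above 0.05). Of these 410, 280 had a mean under 1 RPKM in both neonatal groups, so that little or no neonatal expression was present in which a KIT effect could be seen. A further 104 changed the same way at both ages (unadjusted p of at most 0.05 at each), 19 changed in opposite ways and 15 fell in none of these classes. In the positive group the numbers were 121, 31, 10 and 11 of 174, and 1 gene, the pseudogene *Gm12424*, had a KIT effect called in neonatal cells alone. *Gm12424* had 18 and 17 reads in neonatal KIT- and 0 and 1 in neonatal KIT+ libraries. It had 0 reads in the aged KIT- and 0 and 6 in the aged KIT+ libraries. Little or no aged expression was thus present in which a KIT effect could be seen. With voom weights its adjusted p for the interaction was 0.299 (limma). By level, the aged KIT- group stood farthest from the other 3 groups, on the high side, for 432 of the 548 negative genes, and aged KIT+ cells did so on the low side for 106. For the 174 positive genes it was aged KIT- cells on the low side in 100 and aged KIT+ cells on the high side in 66. Aged KIT- cells were thus the group most often set apart in both directions. The calls rest on few libraries. The count was 1852 without the first and 1307 without the second aged KIT- library, 241 and 209 without the first and second aged KIT+ library, 151 and 178 without the first and second neonatal KIT- library and 147 and 182 without the first and second neonatal KIT+ library.

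**Figure D2:**
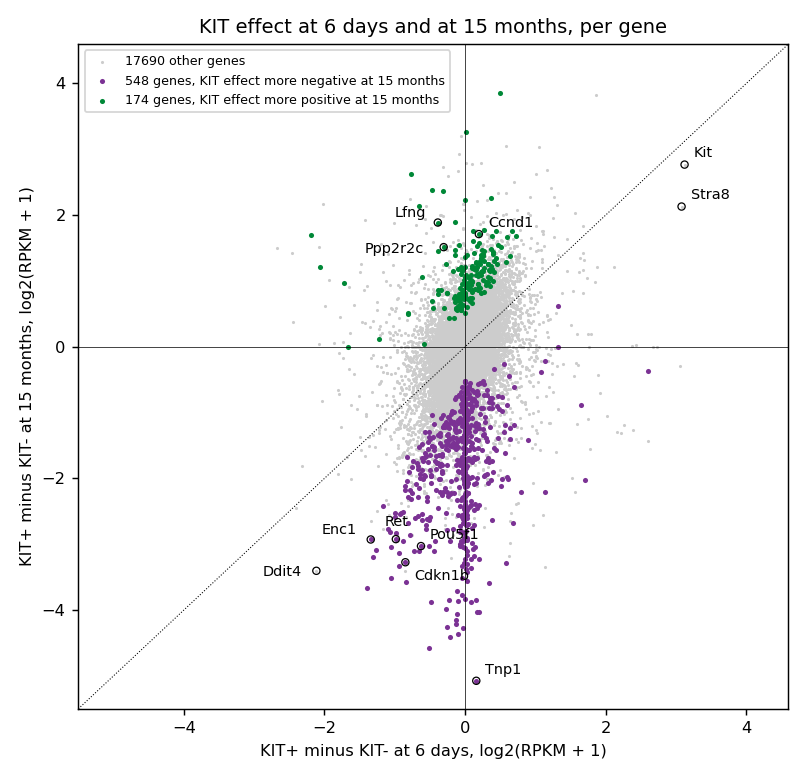
Each point is 1 of 18412 genes, with the KIT+ minus KIT- difference at 6 days on the x axis and at 15 months on the y axis, both on log2(RPKM + 1), and the dotted line marks equal effects. Many of the 548 genes with a more negative effect at 15 months form a column below 0 at x values near 0, others such as *Enc1* and *Ret* lie to its left, and *Kit* and *Stra8* lie far from 0 at both ages, while most of the 174 genes with a more positive effect lie above 0 on y and near 0 on x.

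At each age by itself, the KIT effect was called for 8 genes (0.0434%; 74 with voom weights) in neonatal mice and for 3375 genes (18.3%) in aged mice. Of the neonatal genes, 3 (0.0163%) were higher in KIT+ cells, namely *Kit*, *Stra8* and the predicted gene *Gm9581*, and 5 (0.0272%) were higher in KIT- cells, namely *Enc1*, *Rragd*, *Ddit4*, *Parp8* and *Gm12424*. In aged mice 1243 genes (6.75%) were higher in KIT+ and 2132 genes (11.6%) in KIT- cells. Without adjustment, p was 0.05 or less for 1907 genes in neonatal and 6649 genes in aged mice. Across all genes tested, the standard deviation of the KIT effect was 0.32 in neonatal and 0.66 in aged cells. The Pearson correlation of the 2 effects across genes was 0.317, a description over 18412 genes that share the same libraries within an age and are not replicates, and 0.489 over the 7172 genes whose mean reached 5 RPKM.

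The shared part of the transition was read in 2 ways. With the larger of the 2 ages' p-values adjusted over all genes, 2 genes (0.0109%) passed, *Kit* and *Enc1*, and 63 passed when voom weights were used on the recovered reads. By the plainer rule of an unadjusted p of at most 0.05 at each age and the same sign, 1110 genes (6.03%) changed at both ages. Of these, 560 genes (3.04%) were higher in KIT+ cells and 550 genes (2.99%) higher in KIT- cells at both ages, against 70 genes (0.380%) with opposite signs. The median effect of the first was 0.48 in neonatal and 0.72 in aged cells, and of the second -0.55 and -0.99. The aged effect was the larger in 473 of 560 and in 488 of 550 of them.

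*Stra8*, which retinoic acid induces on the way into meiosis, stood at 11.4 and 10.3 RPKM in neonatal KIT- cells and 123 and 80.2 RPKM in neonatal KIT+ cells. In aged mice it stood at 29.0 and 41.3 RPKM in KIT- and 170 and 141 RPKM in KIT+ cells. Its KIT effect was 3.08 and 2.13, larger in neonatal cells by value, and the difference of -0.95 (95% interval -1.69 to -0.21) did not pass over all genes (adjusted p = 0.152, limma). Other genes higher in KIT+ cells at both ages were *Met*, the receptor for hepatocyte growth factor (effects 1.12 and 1.52), *Gnai1*, an inhibitory G protein subunit (1.45 and 1.63), and *Anxa4*, a calcium-dependent membrane binding protein (1.25 and 1.96). For these 3 genes the interaction did not pass, with adjusted p of 0.281, 0.764 and 0.154 (limma). *Dnmt3b*, a de novo DNA methyltransferase, had effects of 0.84 and 0.63 and an interaction of -0.20 with an adjusted p of 0.569 (limma). *Ccng1*, a cyclin and target of p53, did differ: it stood at 22.4 to 23.0 RPKM in neonatal and 21.1 to 23.0 RPKM in aged KIT- cells, and at 33.9 and 35.2 RPKM in neonatal against 54.9 and 55.0 RPKM in aged KIT+ cells. The KIT- level of *Ccng1* was thus alike at both ages and its KIT+ level was not, with an interaction of 0.69 ± 0.12 (SE, n = 2 libraries per group) and an adjusted p of 0.0217 (limma).

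Among genes higher in KIT- cells at both ages, several had a deeper fall across the transition in aged mice. *Enc1*, an actin-binding BTB and kelch protein at 13:98011060-98022994 (mm9), stood at 44.3 and 43.9 RPKM in neonatal KIT- and 48.7 and 57.5 RPKM in aged KIT- cells. In KIT+ cells it stood at 15.4 and 18.4 RPKM in neonatal but 6.08 and 6.10 RPKM in aged mice. The KIT+ levels were thus farther apart between the ages than the KIT- levels, and the effect was -1.34 in neonatal and -2.93 in aged cells (interaction -1.59 ± 0.16, SE, adjusted p = 0.00427, limma). *Rragd*, a RAG GTPase that links amino acid supply to mTORC1, followed the same order, with 53.5 and 48.4 against 46.2 and 59.4 RPKM in KIT- cells and 19.6 and 21.6 against 5.25 and 5.37 RPKM in KIT+ cells (interaction -1.82 ± 0.18, SE, adjusted p = 0.00425, limma). *Sdc4*, a heparan sulfate proteoglycan of the cell surface, fell from 392 and 353 to 188 and 166 RPKM in neonatal and from 453 and 496 to 65.2 and 67.8 RPKM in aged mice, where the first pair of each is KIT-. The effects of -1.07 and -2.82 differed, with an adjusted p of 0.00524 (limma). *Ddit4*, an inhibitor of mTORC1 induced by stress, had effects of -2.11 and -3.40 and did not pass (adjusted p = 0.0627, limma). *Sall1*, a zinc finger factor, and *Parp8*, a member of the PARP family, had effects of -1.37 and -1.51 and of -1.11 and -0.88, and their interactions of -0.14 and 0.23 did not pass (adjusted p = 0.806 and 0.485, limma).

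**Figure D3:**
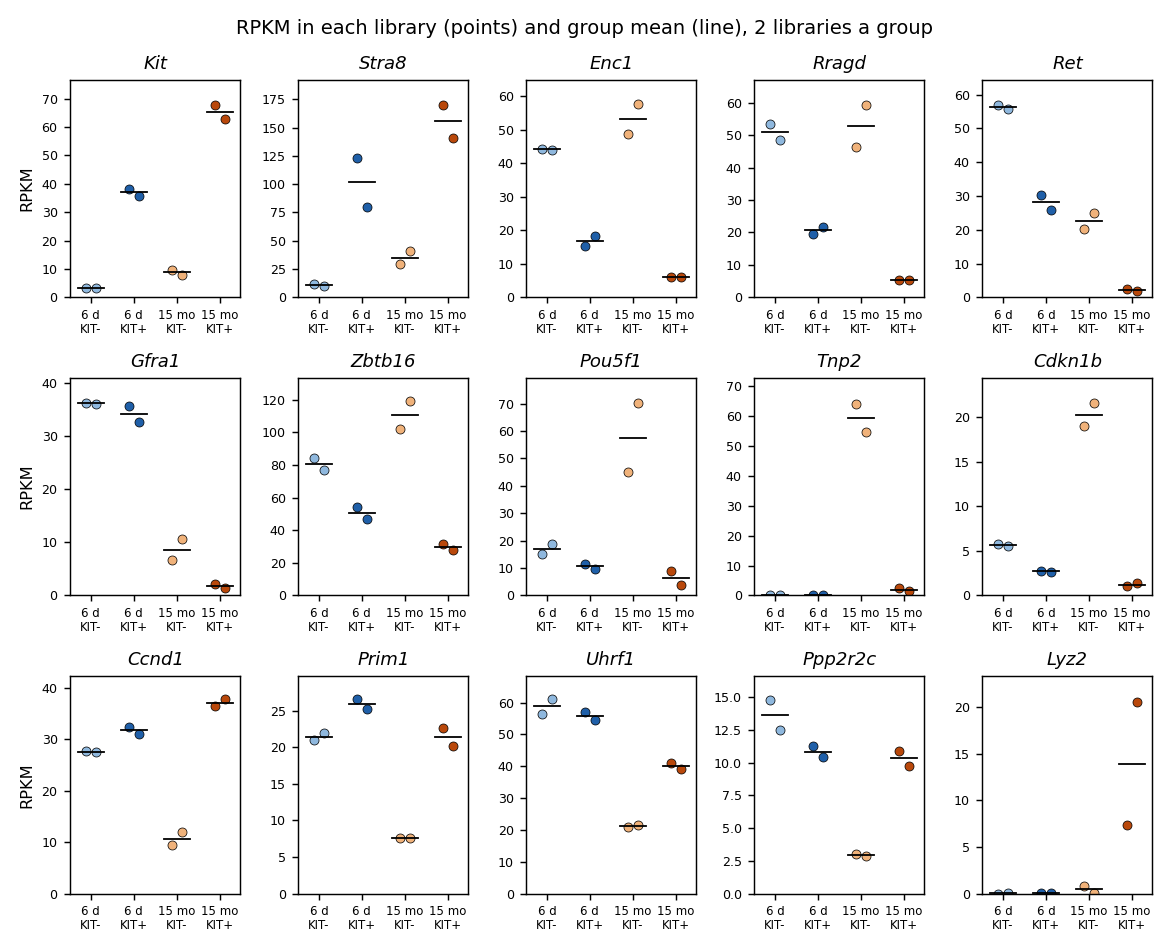
RPKM of 15 genes in each of the 8 libraries (points, 2 per group) with the group mean as a line and every y axis starting at 0. *Kit* and *Stra8* separate KIT+ from KIT- cells at both ages, *Ret* and *Enc1* fall further in aged KIT+ cells, *Cdkn1b*, *Pou5f1* and *Tnp2* stand out in aged KIT- cells, and *Ccnd1*, *Prim1*, *Uhrf1* and *Ppp2r2c* are lowest in the 2 aged KIT- libraries.

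Of the 38 tested genes of the undifferentiated spermatogonia list, 10 had a more negative and 1 (*Epcam*) a more positive KIT effect in aged mice, which is 28.9% of the list against 3.92% of all genes. The list's median effect was -0.38 in neonatal and -0.83 in aged cells, against 0.0016 and -0.043 over all genes tested. At both ages 14 of the 38 were higher in KIT- cells at an unadjusted p of at most 0.05. The median was thus below 0 at both ages and farther below it in aged mice. The negative count was 6 in a fit of the 8 libraries alone and 5 with no filter on low values. Without the first or second aged KIT+ library it was 3 and 2, without the first or second neonatal KIT- library 1 and 1, and without the first or second neonatal KIT+ library 3 and 3.

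*Ret*, the signalling receptor for GDNF, stood at 56.9 and 55.8 RPKM in neonatal KIT- and 30.4 and 25.8 RPKM in neonatal KIT+ cells, and at 20.3 and 25.0 RPKM in aged KIT- and 2.37 and 1.86 RPKM in aged KIT+ cells. Its effects of -0.98 and -2.92 differed by -1.94 ± 0.20 (SE; adjusted p = 0.00427, limma). *Gfra1*, the GDNF-binding partner of RET, stood at 36.2 and 36.1 RPKM in neonatal KIT- and 35.6 and 32.7 RPKM in neonatal KIT+ cells. In aged mice it stood at 6.60 and 10.6 RPKM in KIT- and 2.15 and 1.41 RPKM in KIT+ cells. No KIT difference in *Gfra1* was detected in neonatal cells (effect -0.08, 95% interval -0.56 to 0.40), the aged effect was -1.77 (-2.26 to -1.29), and the effects differed with an adjusted p of 0.0239 (limma). *Etv5*, an ETS factor downstream of GDNF and FGF, went from -0.41 to -1.76 (adjusted p = 0.0217, limma), and *Il17rd*, a feedback inhibitor of FGF signalling, from -0.68 to -1.76 (adjusted p = 0.0128, limma). These 4 made up all calls among the 32 tested genes of GDNF and FGF signalling (12.5%, against 3.92% of all genes).

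*Zbtb16* (PLZF), a repressor that maintains undifferentiated spermatogonia, stood at 84.1 and 76.8 RPKM in neonatal KIT- cells, 54.0 and 46.6 RPKM in neonatal KIT+ cells, 102 and 119 RPKM in aged KIT- cells and 31.6 and 27.9 RPKM in aged KIT+ cells. It was higher in KIT- cells at each age, and the range widened on both sides in aged mice (interaction -1.19 ± 0.17, SE, adjusted p = 0.0138, limma). *Pou5f1*, whose regulatory sequence drives the GFP used for the sort, stood at 15.2 and 18.8 RPKM in neonatal KIT- and 11.6 and 9.73 RPKM in neonatal KIT+ cells, and at 44.9 and 70.2 RPKM in aged KIT- and 9.05 and 3.88 RPKM in aged KIT+ cells. Its effect was -0.63 (95% interval -1.43 to 0.17) in neonatal and -3.03 (-3.83 to -2.23) in aged cells, and the difference of -2.40 ± 0.49 (SE) had an adjusted p of 0.0403 (limma). *Lin28a*, an RNA-binding regulator of let-7, was alike in both neonatal populations (47.5 to 59.9 RPKM) and in aged KIT+ cells (53.9 and 60.2 RPKM). Of the 4 groups, it was higher in aged KIT- cells alone, at 141 and 190 RPKM (interaction -1.37, adjusted p = 0.020, limma). The RNA-binding protein gene *Nanos3* and the growth factor binding protein gene *Igfbp6* went from -1.05 to -3.04 and from -1.05 to -3.52 (adjusted p = 0.0395 and 0.0262, limma). *Tspan8*, a tetraspanin, went from -0.88 to -2.94 (adjusted p = 0.0141, limma) and *Upp1*, a uridine phosphorylase, from -1.10 to -2.77. Not every stem cell gene passed: *Nanos2* had effects of -1.09 and -2.55 (adjusted p = 0.124, limma) and *Id4* -0.52 and -1.44 (adjusted p = 0.243, limma).

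The 21 tested genes of the differentiating spermatogonia list had a median effect of 0.13 in neonatal and 0.71 in aged cells. Of these, 2 passed for the interaction (9.52%, against 3.92% of all genes), both more positive in aged mice. They were *Ccna2* and *Uhrf1*, which also stand in the cell cycle lists. The transcription factor genes *Sohlh1* and *Sohlh2*, which drive the onset of differentiation, did not pass. *Sohlh1* had effects of 0.55 and -0.22 (adjusted p = 0.243, limma) and *Sohlh2* of 0.44 and 1.02 (adjusted p = 0.0992, limma). In the retinoic acid list 1 of 26 genes passed, *Cyp26b1*, an enzyme that breaks retinoic acid down, which stood at 0.279 to 0.617 RPKM in 6 libraries and at 2.47 and 2.98 RPKM in aged KIT+ cells (adjusted p = 0.0467, limma). That share of 3.85% is near the 3.92% of all genes.

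Of the 22 lists, that of spermatids, the haploid germ cells, had the largest share of genes shifted towards aged KIT- cells. Of the 49 tested genes of the spermatid list, 25 (51.0%, against 2.98% of all genes) had a more negative KIT effect in aged mice. The read filter asked for no neonatal reads. In each neonatal library 16 to 21 of the 52 genes of the list were at 0. The median effect of the tested genes was 0 in neonatal and -2.00 in aged cells. The share thus largely restates the aged KIT effect. In aged mice 33 of the 49 were called higher in KIT- than KIT+ cells, against 11.6% of all genes. *Tnp2*, a transition protein that replaces histones in spermatids, stood at 0.0718 to 0.191 RPKM in the 4 neonatal libraries, at 64.2 and 54.7 RPKM in aged KIT- cells and at 2.37 and 1.57 RPKM in aged KIT+ cells. The aged KIT- libraries were thus far above the other 6 (interaction -4.25 ± 0.31, SE, adjusted p = 0.00327, limma). *Tnp1* was higher in the first aged KIT- library than in the second, at 155 against 58.0 RPKM, and stood at 2.10 and 1.62 RPKM in aged KIT+ cells and at most 0.471 RPKM in neonatal cells (interaction -5.23, adjusted p = 0.00706, limma). The protamine gene *Prm1* was listed at 0 in all 4 neonatal libraries and stood at 8.10 and 12.5 RPKM in aged KIT- and 0.072 and 0.306 RPKM in aged KIT+ cells. *Crisp2*, a protein of the acrosome and tail, stood at 65.2 and 42.0 RPKM in aged KIT- and 1.90 and 2.5 RPKM in aged KIT+ cells. *Cmtm2a*, of the CMTM family of membrane proteins, stood at 5.71 and 6.41 RPKM in aged KIT- cells and at most 0.224 RPKM in the other 6 libraries. Some of these genes had few or no neonatal reads, with 1 to 3 per neonatal library for *Tnp2* and 0 or 1 for *Cmtm2a*. For such genes the interaction restates the aged KIT effect and says nothing of a neonatal one.

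These genes moved with the summed spermatocyte and spermatid markers given above, and the lists share *Tnp1*, *Tnp2* and *Prm1* among others. The part of other cells' RNA in this result was not tested. In bulk libraries fewer cells of a type and less RNA per cell cannot be told apart. The spermatid count was 28 without the first and 36 without the second aged KIT- library. It was 17 and 15 without the first and second aged KIT+ library, 12 and 13 without the first and second neonatal KIT- library and 12 and 13 without the first and second neonatal KIT+ library. With voom weights on the recovered reads, 1 gene of the list passed. Of all 548 negative genes, 298 (54.4%) had a mean under 1 RPKM in both neonatal groups, against 36.3% of all genes tested, and the other 250 were expressed in neonatal cells at or above that level.

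The genes named by rank on the negative side show the same mix. Of these 10, *Tnp2* and *Cmtm2a* included, only *Fgd5* kept its call with voom weights on the recovered reads (adjusted p = 0.0025, limma). For the others the adjusted p was 0.0697 to 0.319 in that fit (limma). *Spata20*, a spermatogenesis-associated gene, stood at 10.7 and 10.5 RPKM in aged KIT- cells and at most 0.199 RPKM in the other 6 libraries (interaction -3.33, adjusted p = 0.00327, limma). *1700008P02Rik*, *4930571K23Rik* and *1700042G07Rik*, uncharacterised coding genes, stood at 8.97 and 11.3, 5.39 and 4.70, and 2.57 and 2.71 RPKM in aged KIT- cells. They stood at most at 0.200 RPKM in the other 6 libraries. Each had 0 to 2 reads in every neonatal library, so that their interaction restates the aged KIT effect and says nothing of a neonatal one. *Cntnap5b*, a contactin-associated protein, and *Bcl2l14*, a BCL2 family member, stood at 2.35 and 2.56 and at 3.11 and 3.19 RPKM in aged KIT- cells. They stood at most at 0.161 RPKM in the other 6 libraries. Per neonatal library, *Cntnap5b* had 0 to 3 reads, *Bcl2l14* 1 to 9 and *Spata20* 1 to 11. For these genes too the interaction mostly restates the aged KIT effect. *Fgd5*, an exchange factor for CDC42, differed from these in being present in all groups: it stood at 1.63 and 1.51 RPKM in neonatal KIT-, 0.921 and 0.676 RPKM in neonatal KIT+, 28.7 and 25.5 RPKM in aged KIT- and 2.52 and 2.37 RPKM in aged KIT+ cells. Its fall across the transition was thus present at both ages, at -0.52 and -3.03 (interaction -2.51 ± 0.19, SE, adjusted p = 0.00327, limma). The small nucleolar RNA gene *SNORA17*, at 7.41 and 7.10 RPKM in aged KIT- cells and at most 0.205 RPKM elsewhere, is short and belongs to a multicopy family, so its reads are uncertain. It had 0 or 1 reads in each neonatal library, so its interaction also restates the aged KIT effect.

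In the opposite direction stood the cell cycle. Of 65 tested genes of the G1 and S phase list, 14 had a more positive and 1 a more negative KIT effect in aged mice, and of 50 tested genes of the G2 and mitosis list 13 had a more positive effect and none a more negative one by limma. At an unadjusted p of at most 0.05 the latter list had 28 more positive and 1 more negative, and with voom weights 14 and 0. In a fit of the 8 libraries alone 5 genes of the first list and 8 of the second were more positive, and with no filter on low values 8 and 9. Over all genes 0.945% were called in the positive direction. The median KIT effect was 0.04 in neonatal and 0.44 in aged cells for the first list and 0.18 and 0.70 for the second. The neonatal KIT effect on the G2 and mitosis genes was small but mostly in the same direction, with 12 of 50 higher in KIT+ cells at an unadjusted p of at most 0.05 at both ages.

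*Ccnd1* (cyclin D1), which drives entry into the cycle with CDK4 and CDK6, stood at 27.8 and 27.5 RPKM in neonatal KIT- and 32.5 and 31.1 RPKM in neonatal KIT+ cells. In aged mice it stood at 9.53 and 11.9 RPKM in KIT- and 36.5 and 37.8 RPKM in KIT+ cells. The aged KIT- libraries were thus apart from the other 6, and the effect went from 0.20 (95% interval -0.10 to 0.49) to 1.71 (1.41 to 2.01), with an adjusted p of 0.00716 for the difference (limma). *Prim1*, the catalytic subunit of DNA primase, showed the same layout, with 21.0 to 26.6 RPKM in neonatal cells, 7.64 and 7.59 RPKM in aged KIT- and 22.7 and 20.2 RPKM in aged KIT+ cells (interaction 1.12 ± 0.14, SE, adjusted p = 0.00756, limma). *Uhrf1*, which carries DNMT1 to newly replicated DNA, stood at 54.6 to 61.3 RPKM in neonatal cells, 21.0 and 21.5 RPKM in aged KIT- and 41.1 and 39.2 RPKM in aged KIT+ cells (interaction 0.96 ± 0.12, SE, adjusted p = 0.00756, limma). Its partner *Dnmt1*, the maintenance methyltransferase, stood at 118 and 108 RPKM in aged KIT- and at 177 to 203 RPKM in the other 6 libraries (adjusted p = 0.0374, limma). *Pcna*, the sliding clamp, went from 0.21 to 1.26, *Cdc6*, an origin licensing factor, from 0.17 to 1.22, and *Ccne1* (cyclin E1) from 0.12 to 1.42. The MCM helicase genes *Mcm2*, *Mcm3*, *Mcm6* and *Mcm7* and the ribonucleotide reductase genes *Rrm1* and *Rrm2* were also called.

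The exception in this list was *Cdkn1b*, which encodes the CDK inhibitor p27. It stood at 5.76 and 5.59 RPKM in neonatal KIT- and 2.76 and 2.65 RPKM in neonatal KIT+ cells. In aged mice it stood at 19 and 21.6 RPKM in KIT- and 1.03 and 1.38 RPKM in KIT+ cells. Its fall across the transition thus ran at both ages and was larger in aged mice, at -0.85 (95% interval -1.20 to -0.50) against -3.27 (-3.62 to -2.93), with an interaction of -2.42 ± 0.21 (SE; adjusted p = 0.00395, limma).

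Among mitotic genes, *Cenpa*, the histone variant that marks centromeres, stood at 12 to 12.4 RPKM in all 4 neonatal libraries, at 5.80 and 5.70 RPKM in aged KIT- and at 14.2 and 15.1 RPKM in aged KIT+ cells. Its neonatal effect was -0.0050 (95% interval -0.27 to 0.26) and its aged effect 1.21 (0.95 to 1.48), and they differed with an adjusted p of 0.0101 (limma). *Plk1*, the polo-like kinase of mitosis, stood at 18.9 and 15.5 RPKM in neonatal KIT- and 24.4 and 23.6 RPKM in neonatal KIT+ cells, and at 9.18 and 8.49 RPKM in aged KIT- and 29.0 and 26.7 RPKM in aged KIT+ cells. The transition thus went with a rise at both ages that was larger in aged cells (interaction 1.09 ± 0.16, SE, adjusted p = 0.0147, limma). *Top2a*, the topoisomerase of dividing cells, went from 0.44 to 1.34 (adjusted p = 0.0155, limma), *Kif4*, a chromosome-bound kinesin, from 0.23 to 1.39 (adjusted p = 0.0140, limma) and the proliferation marker *Mki67* from 0.09 to 1.00. The counts of the 2 lists fell from 14 and 13 to 3 and 1 without the first aged KIT+ library, to 3 and 2 without the second, to 3 and 0 without the first neonatal KIT- library, to 3 and 2 without the second, to 4 and 1 without the first neonatal KIT+ library and to 4 and 4 without the second. Without the first aged KIT- library they were 17 and 21. The median interaction of the lists was positive in all 8 of these fits, at 0.44 to 0.55 for G1 and S phase and 0.47 to 0.58 for G2 and mitosis.

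**Figure D4:**
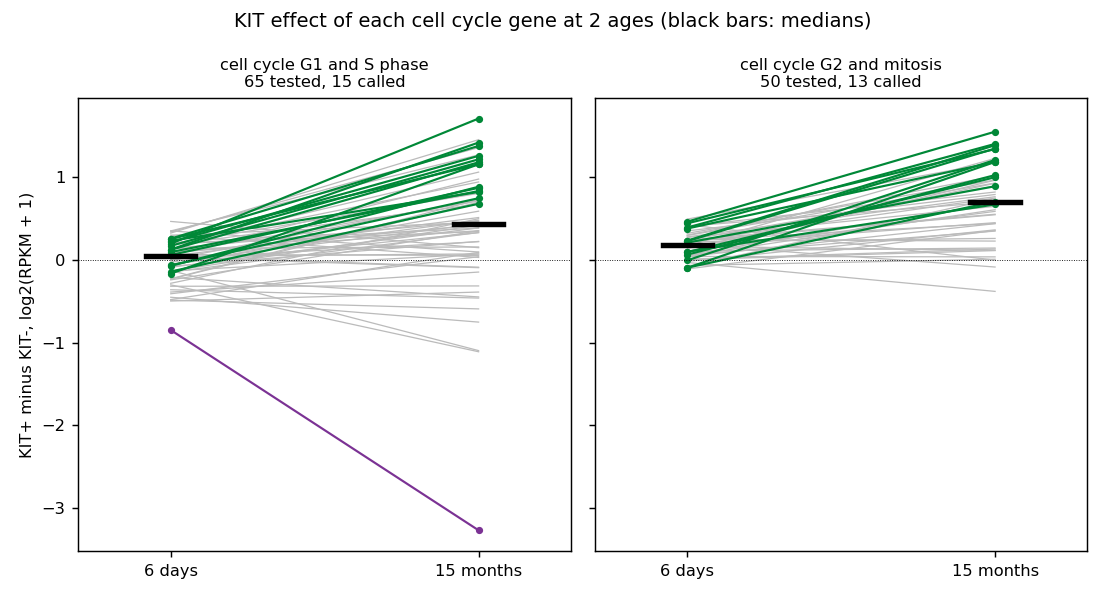
KIT+ minus KIT- difference on log2(RPKM + 1) at 6 days and 15 months, with 1 line per tested gene of the G1 and S phase list (65 genes) and the G2 and mitosis list (50 genes). Green and purple lines are genes called for the interaction (more positive and more negative at 15 months), grey lines are not called and black bars are medians; both medians are higher at 15 months (0.44 and 0.70) than at 6 days (0.04 and 0.18), and *Cdkn1b* is the purple line.

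Since members of both lists moved together, their promoters were examined for the elements known to time cell cycle transcription. Promoters of G2 and mitosis genes often carry a CHR element (TTTGAA) with CCAAT boxes (CCAAT), and those of S phase genes E2F sites, here TTTCCCGC, TTTGGCGC or TTTCGCGC, all searched on both strands in the 300 bases around the RefSeq start (250 before and 50 after, GRCm38.p6). A window was found for 11 of the 13 called G2 and mitosis genes and 13 of the 14 called G1 and S phase genes. A CHR match was present in 10 of the 11 (90.9%), against 29 of 41 (70.7%) of all tested genes of that list and 14.5% of the 11593 tested genes with a window. A CCAAT match was also present in 10 of the 11, against 42.7% of all. An E2F match was present in 6 of the 13 called G1 and S phase genes (46.2%), against 20 of 50 of that list and 3.63% of all tested genes. The elements were thus frequent in the lists as a whole, from which the called genes come. The 2 genes of each list with the lowest interaction p that hold the element are shown here, from 250 bases before to 30 after the start, all on the plus strand of GRCm38.p6. The windows lie at chr5:30666636-30666915 (*Cenpa*), chrX:100625815-100626094 (*Kif4*), chr17:56304063-56304342 (*Uhrf1*) and chr11:98907901-98908180 (*Cdc6*). Capitals mark CHR and CCAAT matches in the first pair and E2F matches in the second.
Cenpa: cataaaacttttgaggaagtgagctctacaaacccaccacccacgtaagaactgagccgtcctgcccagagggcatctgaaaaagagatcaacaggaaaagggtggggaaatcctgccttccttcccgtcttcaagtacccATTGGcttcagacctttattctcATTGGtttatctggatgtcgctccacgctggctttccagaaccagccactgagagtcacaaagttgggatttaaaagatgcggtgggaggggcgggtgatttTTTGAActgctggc
Kif4: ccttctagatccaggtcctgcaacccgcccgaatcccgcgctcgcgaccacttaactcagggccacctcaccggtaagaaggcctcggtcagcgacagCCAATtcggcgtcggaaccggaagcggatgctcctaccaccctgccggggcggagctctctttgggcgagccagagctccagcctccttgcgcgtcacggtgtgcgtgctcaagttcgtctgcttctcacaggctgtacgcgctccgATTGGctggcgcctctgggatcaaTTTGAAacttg
Uhrf1: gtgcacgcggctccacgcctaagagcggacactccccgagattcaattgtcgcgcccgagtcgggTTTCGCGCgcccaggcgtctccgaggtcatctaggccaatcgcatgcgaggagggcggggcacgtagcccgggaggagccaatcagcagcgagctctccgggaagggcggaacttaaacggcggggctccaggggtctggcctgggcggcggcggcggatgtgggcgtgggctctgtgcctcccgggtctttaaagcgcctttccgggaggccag
Cdc6: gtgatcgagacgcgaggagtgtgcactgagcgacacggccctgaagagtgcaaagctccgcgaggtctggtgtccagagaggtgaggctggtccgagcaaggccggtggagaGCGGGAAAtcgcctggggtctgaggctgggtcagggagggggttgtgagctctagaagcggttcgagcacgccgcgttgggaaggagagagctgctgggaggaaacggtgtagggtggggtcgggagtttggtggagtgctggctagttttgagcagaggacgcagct
In *Cenpa* the CHR match began at base 17 and in *Kif4* at base 20 after the start, counted from 1 at the start, with CCAAT matches upstream in both. A match is a description of the letters and not evidence that a factor binds.

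Several of the genes most strongly shifted towards aged KIT+ cells were outside the 2 cell cycle lists. *Ppp2r2c*, a regulatory subunit of protein phosphatase 2A, had the lowest p in this direction, with 14.8 and 12.5 RPKM in neonatal KIT-, 11.3 and 10.4 RPKM in neonatal KIT+, then 3.05 and 2.88 RPKM in KIT- and 10.9 and 9.78 RPKM in KIT+ cells of aged mice (interaction 1.82 ± 0.19, SE, adjusted p = 0.00434, limma). *Tmed2*, a cargo receptor of the early secretory pathway, stood at 78.8 to 86.8 RPKM in neonatal cells, 35.3 and 28.3 RPKM in aged KIT- and 76.9 and 72.1 RPKM in aged KIT+ cells (adjusted p = 0.00898, limma). Of the 4 groups, both were thus low in aged KIT- cells alone. In the 8-month KIT- libraries *Ppp2r2c* stood at 3.45 and 3.93 RPKM and *Tmed2* at 28.2 and 26.3 RPKM. In the 8-month KIT+ library they stood at 10.9 and 57.6 RPKM. The low KIT- level was thus not particular to aged mice. *Wdhd1*, a replisome protein, stood at 60.0 to 70.4 RPKM in neonatal cells, 41.3 and 41.6 RPKM in aged KIT- and 100 and 93.4 RPKM in aged KIT+ cells, above and below the neonatal range (adjusted p = 0.00686, limma). The remaining genes named by rank were short or copied sequences whose reads are uncertain: the pseudogenes *Gm13829* and *Gm12424*, a *7SK* gene and *SNORA77*. *Gm13829* and the *7SK* gene had 0 reads in every neonatal and aged KIT- library. In aged KIT+ libraries *Gm13829* had 23 and 51 reads and the *7SK* gene 17 and 21. Their interaction thus restates the aged KIT effect and says nothing of a neonatal one. At 8 months the *7SK* gene stood at 1.39 and 1.02 RPKM in KIT- and 0 in KIT+ cells. With voom weights their adjusted p was 0.308 and 0.394 (limma). *SNORA77* had effects of -2.19 in neonatal and 1.70 in aged cells, with 9.97 and 8.95 RPKM in neonatal KIT- cells, 0.636 and 2.19 RPKM in neonatal KIT+ cells, 0 in both aged KIT- libraries and 2.14 and 2.38 RPKM in the aged KIT+ libraries.

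Opposite KIT effects at the 2 ages were uncommon, at 29 of the 722 genes, and 2 of them were in the lists. *Bmpr1a*, a type I BMP receptor, stood at 62.7 and 62.3 RPKM in neonatal KIT- and 48.1 and 53 RPKM in neonatal KIT+ cells but at 20.7 and 23.1 RPKM in aged KIT- and 34.5 and 32.0 RPKM in aged KIT+ cells. It was thus higher in KIT- cells in neonatal and in KIT+ cells in aged mice (effects -0.30 and 0.58, adjusted p = 0.0155, limma). *Esrp1*, an epithelial splicing regulator, went from -0.46 to 0.58 (adjusted p = 0.0217, limma).

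Of 25 tested glycolysis genes 5 were called (20%, against 3.92% of all genes), in both directions: *Slc2a3* (a glucose transporter), *Ldha* (lactate dehydrogenase A) and *Pdk1* (an inhibitor of pyruvate dehydrogenase) had more negative effects and *Hk2* (a hexokinase) and *Gapdh* more positive ones in aged mice. *Slc2a3* stood at 13.2 and 13.0 RPKM in neonatal KIT-, 9.19 and 8.81 RPKM in neonatal KIT+, 31.3 and 22.4 RPKM in aged KIT- and 3.45 and 3.70 RPKM in aged KIT+ cells. Aged cells thus lay on both sides of the neonatal range (adjusted p = 0.00442, limma). *Ldha* went from -0.61 to -2.64 (adjusted p = 0.00496, limma), while *Gapdh* stood at 97.8 and 113 RPKM in aged KIT-, 175 and 174 RPKM in aged KIT+ and 211 to 257 RPKM in neonatal cells (adjusted p = 0.0357, limma).

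Adhesion genes were split as well, 3 in each direction of 64 tested (9.38% in both directions together, against 3.92% of all genes). *Epcam*, an epithelial adhesion molecule, stood at 61.9 to 87.2 RPKM in neonatal cells, 41.9 and 41.8 RPKM in aged KIT- and 123 and 122 RPKM in aged KIT+ cells (adjusted p = 0.0257, limma). *Itgb1*, the beta 1 integrin subunit, stood at 103 to 118 RPKM in neonatal cells, 49.8 and 42.7 RPKM in aged KIT- and 95.1 and 93.3 RPKM in aged KIT+ cells (adjusted p = 0.0159, limma). *Chl1*, a neural adhesion molecule, had an effect in aged cells alone (-1.82, adjusted p of the interaction 0.00841, limma).

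**Figure D5:**
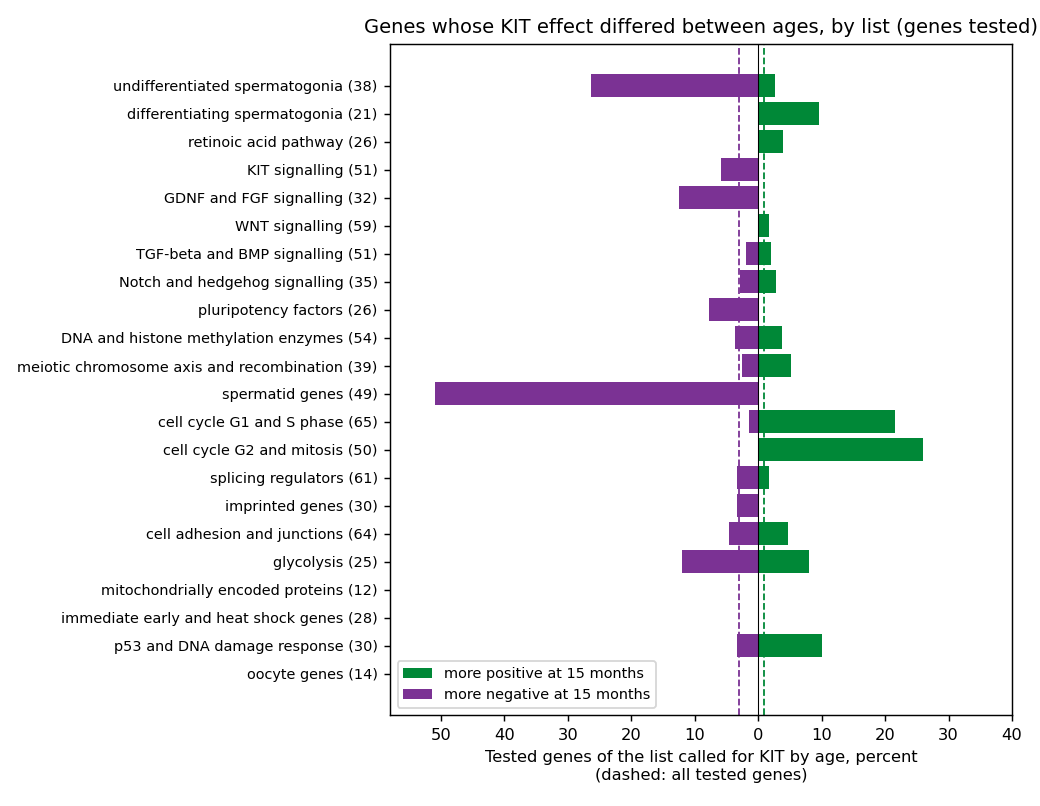
Percent of the tested genes of each of the 22 lists called for the interaction of KIT and age, with more positive effects at 15 months to the right and more negative ones to the left, and dashed lines at the shares of all tested genes (0.945% and 2.98%). The spermatid and undifferentiated spermatogonia lists extend farthest to the left (25 of 49 and 10 of 38 genes) and the 2 cell cycle lists farthest to the right (14 of 65 and 13 of 50). In each neonatal library 16 to 21 of the 52 spermatid genes were at 0.

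Single receptors and modulators were called in other pathways. *Lfng*, a glycosyltransferase that tunes Notch receptors, stood at 1.69 to 3.06 RPKM in neonatal cells, 2.51 and 1.40 RPKM in aged KIT- and 10.3 and 9.14 RPKM in aged KIT+ cells, which lay above the other 6 libraries (interaction 2.27 ± 0.31, SE, adjusted p = 0.0108, limma). *Ptch1*, the hedgehog receptor, was higher in KIT- cells at both ages, with effects of -1.31 and -3.19 (adjusted p = 0.0130, limma). The WNT list had 1 call among 59 genes, the co-receptor *Lrp5*, and the TGF-beta and BMP list 2 among 51, *Bmpr1a* and *Fst*, an inhibitor of activins. The KIT signalling list as written had 3 among 51, all more negative in aged mice. They were the PI3-kinase subunit *Pik3cd*, the kinase *Mapk3* (ERK1) and *Pdk1*. *Pdk1* is the inhibitor of pyruvate dehydrogenase named above, so its place in this list is doubtful. Shares of 1.69%, 3.92% and 5.88% are near the 3.92% of all genes. No gene passed by limma among 12 mitochondrially encoded proteins, 28 immediate early and heat shock genes and 14 oocyte genes, where p before adjustment was 0.05 or less for 0, 4 and 0 genes and 0 passed with voom weights. In the remaining lists the calls were 2 of 26 pluripotency factors (7.69%), 4 of 54 DNA and histone methylation enzymes (7.41%) and 3 of 39 meiotic genes (7.69%). They were 3 of 61 splicing regulators (4.92%), 1 of 30 imprinted genes (3.33%) and 4 of 30 p53 and DNA damage genes (13.3%). Over all genes the share was 3.92%.

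Of 17 tested macrophage markers, 2 (11.8%) had a more positive KIT effect in aged mice, against 0.945% of all genes tested. *Lyz2*, a lysozyme of myeloid cells, stood at 7.32 and 20.6 RPKM in aged KIT+ cells and at most 0.849 RPKM in the other 6 libraries (interaction 3.26 ± 0.61, SE, adjusted p = 0.0300, limma), and *Csf1r*, the receptor for macrophage colony-stimulating factor, was the other to pass. With voom weights 0 of the 17 passed, and by limma 11 were below or at 0.05 before adjustment. The second aged KIT+ library held 88.6 of summed RPKM against 23.0 in the first. The part of these cells in other aged KIT+ values was not tested.

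The 8-month libraries, which took no part in the contrast, give an intermediate age. There were 2 KIT- libraries and 1 KIT+ library, so no test was made. Of the 410 negative genes with an effect in aged cells alone, 395 (96.3%) were also higher in KIT- cells at 8 months, close to the 95.1% of all 2132 genes called higher in aged KIT- cells. Their median effect at 8 months was -0.82, against -0.76 for those 2132 genes. Of the 121 positive genes, 116 (95.9%) were higher in KIT+ cells at 8 months, against 94.7% of all 1243 genes called, and the medians at 8 months were 1.11 and 0.84. The choice of these genes fixes their effects at 6 days and 15 months. The direction at 8 months was thus that of aged mice for nearly all genes of both kinds, as it was for all genes called in aged mice. *Ccnd1* stood at 8.37 and 6.74 RPKM in 8-month KIT- and 36.2 RPKM in 8-month KIT+ cells, and *Cdkn1b* at 13.8 and 16.2 against 0.716 RPKM. *Tnp2* was lower at 8 than at 15 months in KIT- cells, at 12.7 and 8.54 RPKM, and stood at 1.32 RPKM in 8-month KIT+ cells.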

How the data were processed

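RNA was sequenced from FACS-sorted Oct4-GFP+ KIT- and KIT+ spermatogonia after rRNA depletion, with paired-end reads. The authors deposited RPKM values, 1 table per library, made on mm9. Their methods give Trimmomatic for trimming and featureCounts on Ensembl release 67 genes, whereas the submitters' processing notes name Trim Galore and RSEM, so which tool made the RPKM values is not settled by the sources used here, nor whether counting used strand. Antisense, overlapping and multicopy genes can share reads. The labels give ages of 6 days and 15 months, and the methods text and design text differ slightly from them.

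Each table held 39331 rows for 37991 identifiers, and repeated rows were collapsed. GENCODE M1 (NCBIM37, mm9) gave names and exon lengths for 37205, and 786 were not in it. RPKM times exon length and library total gave whole reads within 0.05 for 98.0% to 98.2% of values, and the 18412 genes with at least 10 reads in at least 2 of 11 libraries were tested. One limma fit (version 3.58.1, R 4.3.3, variance trend) on log2(RPKM + 1) covered all 11 libraries in 6 groups, because groups of 2 need a shared spread. Contrasts were the KIT effect at each age and their difference, and the larger of both p-values (1 where signs differ) tested a shared effect. Fold changes on this scale understate those of low genes. All intervals are at 95%.

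The comparison, gene lists (22, and 10 of markers), rules and tests were chosen with earlier results of these data known. Genes named by rank were, in each direction, the 10 with the lowest interaction p among called genes whose library differences did not overlap between ages and whose mean reached 1 RPKM in a group, the 6 with the lowest shared p, and up to 4 per list, beside known spermatogonial genes. Other list members, the oppositely moving genes, the 8-month description and the promoter motifs were named after values were seen. Promoter windows came from RefSeq (GRCm38.p6), matched by symbol.

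On simulated data of 18412 genes at a dispersion of 0.05, the interaction test recovered 36.0% of 200 genes changed 4-fold and 96.5% changed 8-fold, with 0 and 6 unchanged genes called, and the shared test 94.5% and 100%. The changed genes were drawn from those expected to have over 200 reads in the shallowest library. All groups had the same baseline mean. Alternatives were a pseudocount of 0.1, a mean of at least 1 RPKM, no filter, the 8 libraries alone, a replicate block, median-of-ratios scaling, voom weights on recovered reads, thinning of the reads to the shallowest library, each library left out and other thresholds.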

Additional observations from a re-analysis of the deposited data

Results flagged for a closer look

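The KIT effect differed between neonatal and aged mice, by the interaction term in limma (FDR up to 0.05 over all genes tested), for 722 genes, 548 more negative and 174 more positive in aged mice. Among genes named by rank, the difference of the effects (aged minus neonatal, log2(RPKM + 1)) was -4.25 for *Tnp2*, -3.44 for *1700008P02Rik*, -3.33 for *Spata20*, -3.18 for *SNORA17*, -2.63 for *Cmtm2a*, -2.51 for *Fgd5*, -2.45 for *4930571K23Rik*, -1.86 for *Bcl2l14*, -1.86 for *1700042G07Rik* and -1.77 for *Cntnap5b*. In the other direction it was 3.90 for *SNORA77*, 2.24 for *Gm13829*, 1.82 for *Ppp2r2c*, 1.52 for *Ccnd1*, 1.37 for the *7SK* gene, 1.34 for *Gm12424*, 1.27 for *Tmed2*, 1.12 for *Prim1*, 1.10 for *Wdhd1* and 0.96 for *Uhrf1*. Neonatal reads were few or absent for *Gm13829*, the *7SK* gene and all named negative genes but *Fgd5*. For those the difference mostly restates the aged KIT effect, and for *Gm12424*, with few or no aged reads, the neonatal one.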

How the results depend on the processing

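The interaction count of 722 (174 more positive, 548 more negative) was 374 (57 and 317) in a fit of the 8 libraries alone. With each library left out it ranged from 147 to 1852 (13 to 567 more positive, 131 to 1285 more negative). The library differences of all 722 genes had no overlap between the ages, as was so for 6220 of all 18412 tested genes (33.8%). This fixes the direction of each of the 722 when a library is left out, so the kept direction adds no support. With voom weights 1 of 722 changed direction. The 8 neonatal calls became 17 with a mean of at least 1 RPKM, 16 with no filter, 74 with voom weights and 1 to 21 with a library left out. The 3375 aged calls ranged from 1936 (without the first aged KIT+ library) to 4156 with a library left out, and the 1243 on the KIT+ side from 680 to 1581. The 2 shared genes became 1 in the 8 libraries alone and with no filter, 5 with median-of-ratios scaling, 6 with a mean of at least 1 RPKM and with a pseudocount of 0.1, 63 with voom weights and 1 to 3 with a library left out. Thinning changed no call count by over 1.5 times. The causes were not tested.

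With a replicate block (the number as a term inside each age) the interaction count was 0 (0 more positive and 0 more negative by limma, with 2754 genes at p up to 0.05 before adjustment), the neonatal count 0, the aged count 1801 (615 on the KIT+ side) and the shared count 0. Whether same-numbered libraries came from the same sort is not stated. Their deviations correlated across genes at 0.0458 in neonatal and -0.0577 in aged mice, which cannot exclude pairing. The main fit took the libraries as unpaired.

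Of 314 values for the 20 genes named by rank, 277 kept their call and 37 lost it (20 with the replicate block, 13 with voom weights). With 2 libraries per group, interactions can be missed: 36.0% of 4-fold interactions simulated at a dispersion of 0.05 were recovered. The simulated changed genes were well expressed, so this share does not describe genes with few reads. The smallest difference called in the data was 0.51 on log2(RPKM + 1), so the simulated limit does not hold for every gene.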

Other observations

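Genes with histone symbols from *Hist1h* to *Hist4h* were chosen after their values were seen, and include the pseudogene *Hist3h2bb-ps*. They summed to 1445 and 1514 RPKM in neonatal KIT- and 2098 and 1639 RPKM in neonatal KIT+ cells. In aged mice they summed to 1970 and 1865 RPKM in KIT- and 4100 and 3633 RPKM in KIT+ cells. *Hist1h1a*, which was not called (adjusted p = 0.194, limma), made up 1100 and 925 RPKM of the aged KIT+ sums. The aged KIT+ libraries lay above the other 6. Of 61 tested, 4 (6.56%, against 0.945% of all genes) had a more positive KIT effect in aged mice (*Hist1h3h*, *Hist1h2an*, *Hist1h4a* and *Hist3h2ba*) and 0 a more negative one by limma, where 2 had p up to 0.05 before adjustment and 0 passed with voom weights. *Hist1h3h* was lower in aged KIT+ cells (133 and 142 RPKM) than in neonatal cells (168 to 335 RPKM). At 8 months *Hist1h3h* stood at 85.2 and 82.7 RPKM in KIT- and 47.9 RPKM in KIT+ cells. The other called genes were higher in aged KIT+ cells than in every neonatal library. Many of these genes are near copies of each other, and how their reads were shared out is uncertain.

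Of 1298 tested lincRNA, antisense and processed transcript genes, 34 were called for the interaction (2.62%, against 3.92% of all genes), 32 of them more negative and 2 more positive in aged mice. On the X chromosome 38 of 778 tested genes were called (4.88%, against the same 3.92%), 25 more negative and 13 more positive.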
